A study of Homo sapiens with 4 samples.

Results

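The 10 genes described here, MTA1, MTA2, MTA3, CHD3, CHD4, CHD5, GATAD2A, GATAD2B, MBD2 and MBD3, encode subunits of NuRD, a complex that remodels nucleosomes and deacetylates histones. They were chosen by name, with the peaks inside them already known, out of 20037 protein-coding genes on chromosomes 1 to 22, X and Y. Chromatin immunoprecipitation (ChIP) for MTA1 was carried out in HCT116, a human colorectal carcinoma line of epithelial form, and gave 2 ChIP libraries and 2 input libraries made without antibody. All 4 libraries came from formaldehyde-fixed cells of this single line, and the labels name no treatment, genotype or time that differs between them. The deposited data were 2 peak lists. List 1 held 32042 peaks of ChIP replicate 1 against input 1, and list 2 held 31079 peaks of ChIP replicate 2 against input 2. A peak was called interior where its midpoint lay between the RefSeq ends of a gene (GRCh38), and flanking where it lay up to 10 kb outside an end. By this rule 43 peaks of list 1 and 23 of list 2 were in or beside the 10 genes. Each list is a single call set with no read counts, so depth is unknown, there is no spread between libraries, and no difference was tested. Intervals are exact 95% Poisson intervals of a count and cover counting error only. The score of each peak is the authors' own value, its scale is not given in the sources used here, and scores are compared within a list alone. Whether the replicates were separate cultures is not stated in the labels. The lists hold no expression values, so the cell type was not checked against marker genes.

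NuRD joins 2 enzymatic activities in a single assembly. CHD3, CHD4 and CHD5 are alternative ATPases that slide nucleosomes, and HDAC1 and HDAC2 remove acetyl groups from histones. The MTA proteins are scaffolds that bind and activate the deacetylases through ELM2 and SANT domains. MBD2 binds methylated CpG dinucleotides, MBD3 is its close relative with little preference for methylated DNA, and a complex holds either MBD2 or MBD3. GATAD2A and GATAD2B link the MBD protein to the CHD ATPase. The complex is best known for repressing genes and for tuning enhancers and promoters during differentiation, and raised MTA1 is a familiar feature of carcinomas, colorectal ones included.

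No peak of either list overlapped a promoter window of the 9 genes that had one. RefSeq promoter windows (GRCh38.p14), each 300 bases from 250 before a start to 50 after it, were found for 9 of the genes, with 12 windows in all because MTA2, MTA3 and GATAD2A have a second start, and CHD5 had none. Peaks of list 1 overlapped 0 of these 12 windows, beside 16.1% of the 22199 windows of all protein-coding genes, and peaks of list 2 also overlapped 0, beside 2.79%. With only 12 windows, no difference from these shares was read or tested. The window of MBD2 came nearest to a peak, at 832 bp from a list 1 peak. That of MBD3 lay 1665 bp from list 1. The window of MTA1 lay 3387 bp from list 1 and 4183 bp from list 2, and that of CHD3 lay 3044 bp from list 2. The window of CHD3 stands inside the gene as annotated, and the list 2 peak near the annotated 5′ end of CHD3, with its midpoint 372 bp from that end, was outside the window. Most of the windows were rich in CpG dinucleotides. In 10 of the 12 the CpG count exceeded 21, the median over all protein-coding windows, with 49 at the first start of MTA3 as the highest count and 6 at its second start as the lowest. The same 10 windows held the GC box GGGCGG, or its complement CCGCCC on the other strand, which 56.3% of all windows held. CHD3 and the second start of MTA3 had neither the box nor a CpG count above the median. Such matches are descriptions of sequence and not binding sites.

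Windows of neighbouring genes did meet peaks, and a few are printed here so that the sequences can be compared. Within 10 kb of the 10 genes, 4 other genes had a start window that a peak touched. These 4 were taken because a peak touched them, and the number of all neighbouring windows is not given here. Their contrast with the windows of the 10 genes was therefore set by this choice. In the 6 windows below, printed 5′ to 3′ on the strand of each gene, capitals mark bases inside a peak, so that the windows of MTA1 (chr14:105419577-105419876, plus strand) and MBD2 (chr18:54224620-54224919, minus strand) stand wholly in lower case. The window of TUT1 (chr11:62591474-62591773, minus strand), a terminal uridylyltransferase gene beside MTA2, and that of NDUFA13 (chr19:19515975-19516274, plus strand), a gene of respiratory complex I beside GATAD2A, lay wholly inside list 1 peaks. In the window of TSSK6 (chr19:19515499-19515798, minus strand), a testis-specific kinase gene also beside GATAD2A, 71 bases lay inside a list 1 peak. A window of CRIP2 (chr14:105476993-105477292, plus strand), a LIM-domain gene beside MTA1, lay wholly inside a list 2 peak. The 4 windows touched by a peak had no common CpG content. TUT1 held 28 CpG dinucleotides, NDUFA13 held 25 and TSSK6 held 14, all 3 with a GC box, whereas CRIP2 held 3 and no GC box. The windows of MTA1 and MBD2 held 39 and 32, both with a GC box.
MTA1: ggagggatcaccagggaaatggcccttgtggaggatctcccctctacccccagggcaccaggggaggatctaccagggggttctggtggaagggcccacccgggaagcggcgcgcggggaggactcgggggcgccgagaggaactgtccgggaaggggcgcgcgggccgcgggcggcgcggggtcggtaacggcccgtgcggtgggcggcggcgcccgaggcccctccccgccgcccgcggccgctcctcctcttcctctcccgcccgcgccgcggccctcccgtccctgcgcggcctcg
MBD2: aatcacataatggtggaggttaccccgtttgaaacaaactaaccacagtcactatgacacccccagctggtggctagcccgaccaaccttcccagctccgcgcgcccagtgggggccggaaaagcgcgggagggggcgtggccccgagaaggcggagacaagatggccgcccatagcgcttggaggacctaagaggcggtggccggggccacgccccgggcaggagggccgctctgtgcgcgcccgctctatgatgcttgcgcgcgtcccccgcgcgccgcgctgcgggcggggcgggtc
TUT1: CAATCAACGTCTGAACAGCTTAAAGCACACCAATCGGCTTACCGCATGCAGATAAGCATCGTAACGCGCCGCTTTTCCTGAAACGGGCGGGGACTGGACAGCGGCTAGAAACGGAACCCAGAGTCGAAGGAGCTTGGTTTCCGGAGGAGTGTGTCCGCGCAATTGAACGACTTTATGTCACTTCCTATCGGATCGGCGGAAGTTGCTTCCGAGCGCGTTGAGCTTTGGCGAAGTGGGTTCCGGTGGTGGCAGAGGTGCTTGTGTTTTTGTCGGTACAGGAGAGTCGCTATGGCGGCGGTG
NDUFA13: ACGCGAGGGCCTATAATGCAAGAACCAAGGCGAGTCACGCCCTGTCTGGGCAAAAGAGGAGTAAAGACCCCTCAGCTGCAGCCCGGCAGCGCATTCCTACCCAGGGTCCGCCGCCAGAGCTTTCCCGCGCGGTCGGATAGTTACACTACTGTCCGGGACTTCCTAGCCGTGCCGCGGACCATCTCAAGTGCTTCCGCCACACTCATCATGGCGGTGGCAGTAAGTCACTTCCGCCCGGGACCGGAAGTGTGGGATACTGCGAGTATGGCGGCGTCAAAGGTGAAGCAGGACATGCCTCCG
TSSK6: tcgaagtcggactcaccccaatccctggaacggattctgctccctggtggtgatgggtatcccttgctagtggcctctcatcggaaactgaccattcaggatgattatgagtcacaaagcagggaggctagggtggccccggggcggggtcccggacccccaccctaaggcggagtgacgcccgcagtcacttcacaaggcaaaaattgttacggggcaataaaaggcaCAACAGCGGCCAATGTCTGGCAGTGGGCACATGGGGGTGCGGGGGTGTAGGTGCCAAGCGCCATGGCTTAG
CRIP2: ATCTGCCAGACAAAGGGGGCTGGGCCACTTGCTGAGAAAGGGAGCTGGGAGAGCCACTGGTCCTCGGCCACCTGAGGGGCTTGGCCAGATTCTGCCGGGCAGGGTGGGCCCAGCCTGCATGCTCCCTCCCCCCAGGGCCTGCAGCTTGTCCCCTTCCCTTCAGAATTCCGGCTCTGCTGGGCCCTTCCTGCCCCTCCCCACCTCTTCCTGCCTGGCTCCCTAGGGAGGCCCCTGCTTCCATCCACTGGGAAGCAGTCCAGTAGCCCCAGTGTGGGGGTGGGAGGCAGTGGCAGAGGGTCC

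Inside the genes, 48 peaks were found over a summed length of 799.9 kb. List 1 had 29 of them (19.4 to 41.6) and list 2 had 19 (11.4 to 29.7). Peaks of list 1 lay in 7 of the 10 genes, beside 43.5% of all protein-coding genes, and peaks of list 2 in 6, beside 35.2%. Both lists had interior peaks in 5 genes, MTA1, MTA3, CHD5, GATAD2B and MBD2, beside 21.2% of protein-coding genes. GATAD2A and MBD3 had list 1 peaks alone, CHD3 had a list 2 peak alone, and MTA2 and CHD4 had none, as was the case for 42.4% of protein-coding genes. The genes were picked with these peaks known, so nothing is read from these counts against the background. Long genes also hold peaks more often. Among the 2003 protein-coding genes of 52.3 to 83.5 kb, which is the class with CHD5 and MBD2 when all are divided into 10 equal classes by length, 52.1% had a list 1 peak and 57.6% a list 2 peak.

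**Figure D1:**
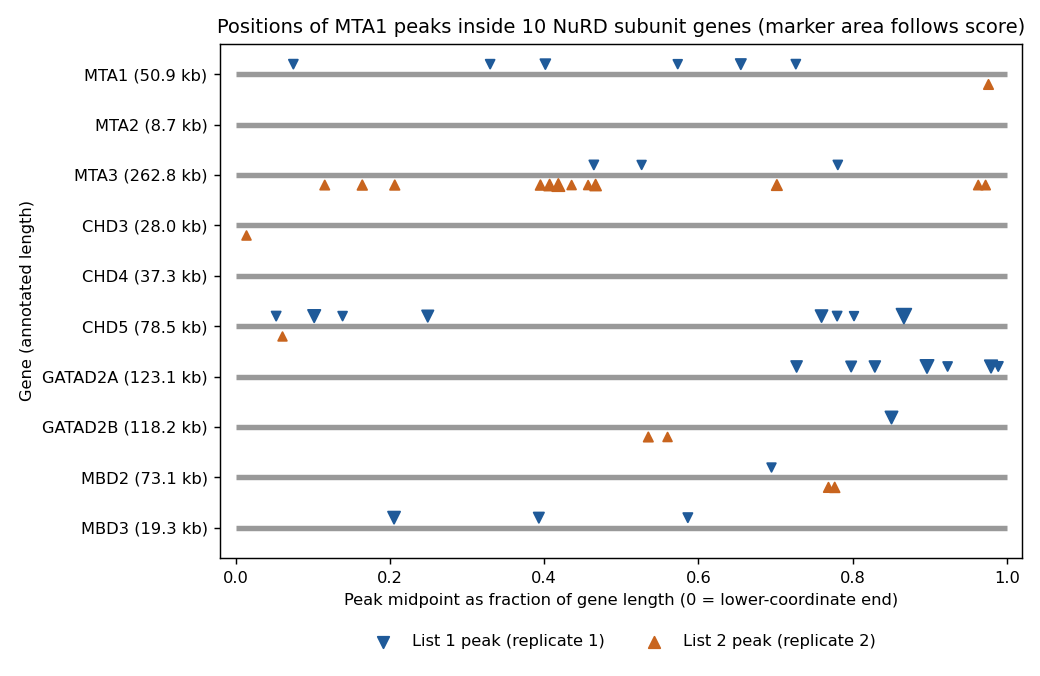
Midpoint of each interior peak as a fraction of gene length (x axis, 0 at the lower-coordinate end) for the 10 genes (rows, with annotated length in kb); blue triangles above each line are list 1, orange triangles below are list 2, and marker area follows the score. The 7 list 1 peaks of GATAD2A lie between 72.7 and 98.9% of the gene, and 6 of the 12 list 2 peaks of MTA3 stand together between 39.5 and 46.7%.

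Rates were set against the chromosome, since the 10 genes lie on 8 chromosomes whose list 1 rates ranged from 0.785 peaks per 100 kb (chromosome 18) to 3.34 (chromosome 19). The chromosome rate is the number of peaks on a chromosome over its span from first to last annotated gene. At these rates 11.6 list 1 peaks would fall inside the 10 genes, and the 29 observed were 2.51 times as many (1.68 to 3.60). Over all protein-coding genes the same ratio was 1.41. In list 2, 9.53 would fall inside and the 19 observed were 1.99 times as many (1.20 to 3.11), beside 1.20 over all protein-coding genes. A single gene carried the list 2 value, because MTA3 held 12 of the 19 peaks, and the ratio without MTA3 was 1.01. In list 1, MTA1 and CHD5 held 6 and 8 of the 29 peaks, where 0.442 and 0.813 would fall at chromosome rates. The list 1 ratio was 2.07 without MTA1, 1.95 without CHD5 and 2.95 without GATAD2A. The list 1 ratio was lower beside the surroundings of the genes. Against the rate within 1 Mb on each side of each gene, 21.9 list 1 peaks would fall inside and the ratio was 1.33. That number lay inside the interval of the 29 observed (19.4 to 41.6). In list 2 the local ratio was 1.52. The 12.5 peaks at the local rate also lay inside the interval of the 19 observed (11.4 to 29.7). Counts exceeded the chromosome rate in 6 of the 10 genes in each list, beside 36.4% of protein-coding genes in list 1 and 29.0% in list 2. The median gene of the 10 held 2 list 1 peaks and 1 list 2 peak, and the median protein-coding gene held 0 of either. These backgrounds pool genes of all lengths, and the median length of the 10 genes was 62.0 kb. Among protein-coding genes of 52.3 to 83.5 kb the median was 1 peak in each list.

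**Figure D2:**
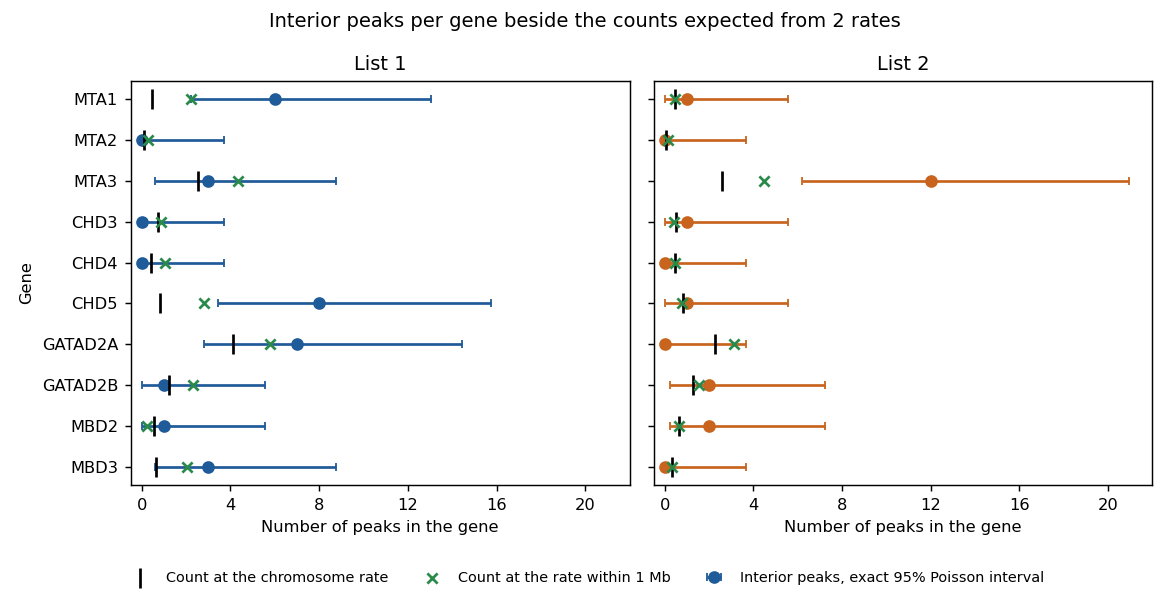
Interior peaks of each gene (dots, with exact 95% Poisson intervals) in list 1 (left) and list 2 (right), with the count that the chromosome rate gives (black ticks) and the count that the rate within 1 Mb gives (green crosses); the x axis is the number of peaks. CHD5 in list 1 and MTA3 in list 2 have intervals that lie above both marks. The genes were chosen with their peaks known and the marks are drawn without their own counting error, so this is not a test.

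MTA1 (chr14:105419827-105470729, plus strand, 50.9 kb) encodes the immunoprecipitated protein itself. It held 6 list 1 peaks and 1 list 2 peak. The list 1 peaks lay at 7.48, 33.0, 40.1, 57.3, 65.5 and 72.6% of the gene from its 5′ end, and the list 2 peak lay at 97.5%, so that none of them met. The 6 list 1 peaks thus left the end of the gene free, with 3.63 to 13.0 kb between neighbouring midpoints. Their scores were modest. The highest, 71.01 at chr14:105452891-105453435, ranked 11640 in list 1, and the lowest, 51.34 at chr14:105448576-105449425, ranked 29832. In a list whose lowest score is 50, 2 of the 6 were in the better-scoring 50%. The list 2 peak, at chr14:105468994-105469923 and 1271 bp before the 3′ end, had a score of 58.64 (rank 17839).

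The list 1 rate in MTA1 was 11.8 peaks per 100 kb (4.33 to 25.7), against 0.869 on chromosome 14, a ratio of 13.6 (4.98 to 29.5). This was the highest ratio to the chromosome among the 10 genes in list 1. Within 1 Mb of MTA1 list 1 had 87 peaks, or 4.35 per 100 kb, and the local ratio was 2.71. The list 2 rate was 1.96 per 100 kb (0.0497 to 10.9), 2.16 times the rate of chromosome 14. Among protein-coding genes of all lengths, 2.83% held 6 or more list 1 peaks. By rate per 100 kb, 9.44% stood higher than MTA1 in list 1. Beyond the 3′ end, MTA1 had the only flanking peaks of the 10 genes that overlapped between the lists, at chr14:105476184-105476784 in list 1 (score 60.4) and chr14:105476341-105477578 in list 2 (score 51.61). They shared 444 bp inside CRIP2.

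MTA2 (chr11:62593214-62601865, minus strand, 8.65 kb), a scaffold gene related to MTA1, held 0 peaks of either list. At the rates of chromosome 11, only 0.105 list 1 peaks and 0.0830 list 2 peaks would fall in a gene this short, so a lack of peaks was not detectable as a difference. Its flanks were not empty, with 3 list 1 peaks. Besides the peak over the start of TUT1 (score 78.76), 2 lay in EML3, a gene for a microtubule-binding protein on the side of the 5′ end. The wider of these, at chr11:62610432-62612799, had a score of 132.41 and ranked 1479 in list 1.

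MTA3 (chr2:42494110-42756946, plus strand, 262.8 kb) is the longest of the 10 genes and encodes the scaffold first described in breast epithelium as an oestrogen-dependent subunit. It reversed the balance seen in MTA1, with 3 list 1 peaks and 12 list 2 peaks. The list 2 rate was 4.57 per 100 kb (2.36 to 7.97), 4.65 times that of chromosome 2 (2.40 to 8.13) and 2.69 times the rate within 1 Mb. The list 1 rate was 1.14 per 100 kb (0.235 to 3.34), 1.19 times that of chromosome 2 and 0.692 times the rate within 1 Mb. List 2 peaks in MTA3 thus stood above both marks, while list 1 peaks lay above the chromosome rate and below the local one. By count, with no allowance for length, 73 protein-coding genes (0.364%) held 12 or more list 2 peaks. By rate per 100 kb, 9.66% of protein-coding genes stood higher than MTA3 in list 2.

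The list 2 peaks of MTA3 were uneven along the gene. A run of 6 lay between 39.5 and 46.7% of its length, all within 20 kb and inside LOC105374555, a long non-coding RNA gene of 37.0 kb nested in MTA3. The rate in LOC105374555 was 16.2 list 2 peaks per 100 kb. In the rest of MTA3, with the other 6 peaks, it was 2.66, which is 2.71 times that of chromosome 2. LOC105374555 was singled out because the run lay in it, so the contrast of these rates was set by this choice. The run held the 3 best-scoring list 2 peaks of the 10 genes. They were chr2:42603680-42604449 (score 101.87, rank 1159), chr2:42600837-42601341 (81.83, rank 4036) and chr2:42616459-42617070 (81.21, rank 4166). At the upper edge of the run, the last of these lay 57 bp from a list 1 peak at chr2:42615914-42616401 (score 55.53, rank 23960). The lists thus came within 57 bp of each other there without overlapping. The other list 1 peaks scored 50.8 at 52.6% and 53.96 at 78.1% of the gene, and all 3 were outside the better-scoring 50%. The remaining list 2 peaks lay at 11.6 to 20.6% (3 peaks), at 70.2% and at 96.3 and 97.2%. The peak nearest to the second start of MTA3 was 19.3 kb from its window.

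**Figure D3:**
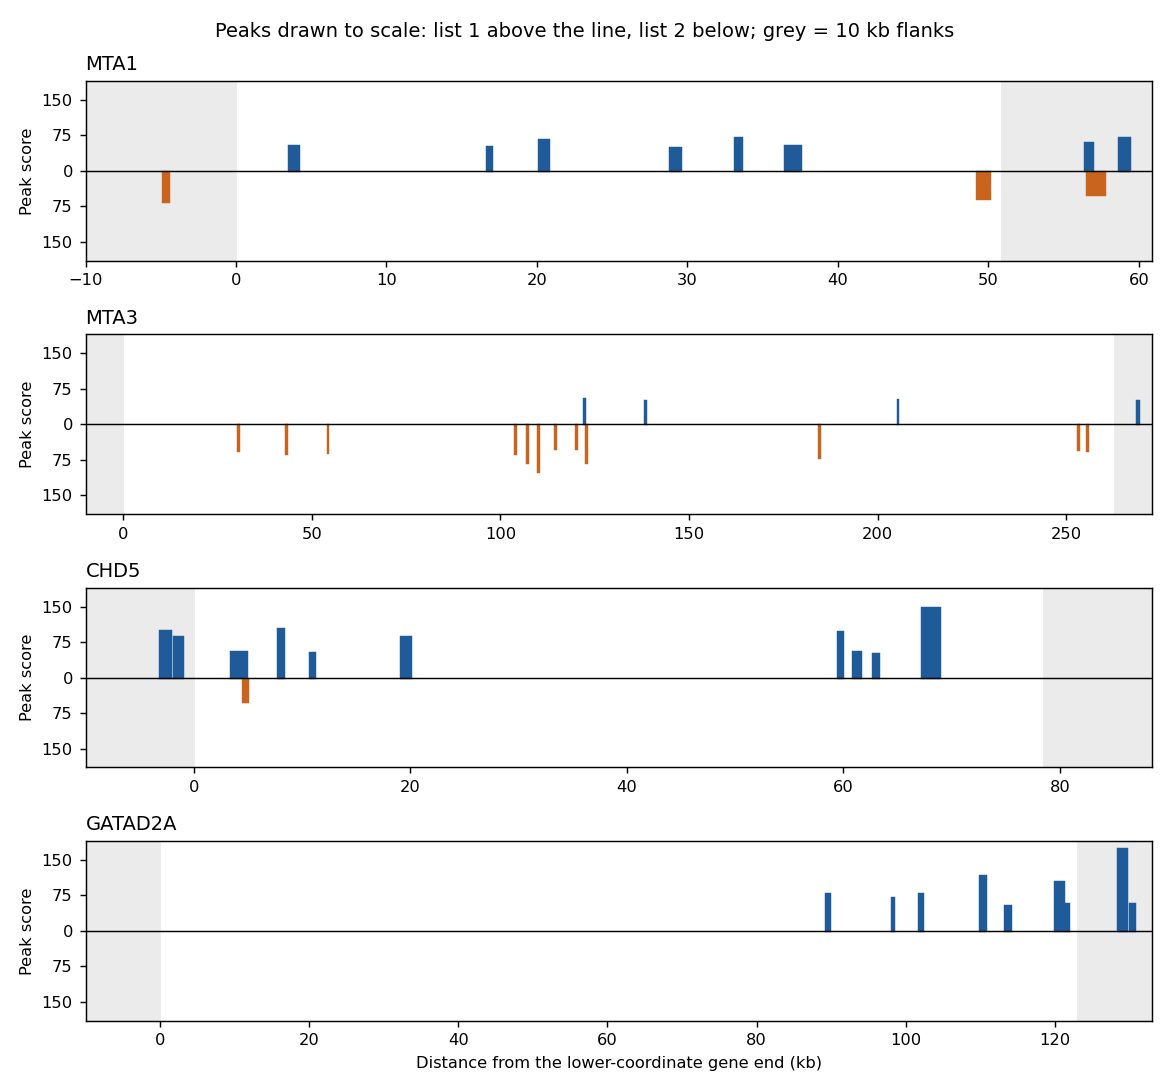
Peaks of MTA1, MTA3, CHD5 and GATAD2A drawn to scale by distance from the lower-coordinate gene end in kb (x axis); bar width is peak width and bar height is the score, with list 1 above the line in blue and list 2 below in orange, and grey bands are the 10 kb flanks. The lists overlap inside CHD5 at its lower end and in the upper flank of MTA1.

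The remodelling ATPase genes differed from one another. CHD5 (chr1:6101787-6180321, 78.5 kb), an ATPase expressed mainly in neurons and testis and lost with 1p in neuroblastoma, held the most list 1 peaks of the 10 genes, with 8, and 1 list 2 peak. The list 1 peaks formed 2 groups of 4. One group stood at 5.25 to 24.9% of the gene from its lower-coordinate end and the other at 76.0 to 86.6%, with 39.3 kb free of peaks in between. The upper group contained the best-scoring interior peak of the 10 genes in list 1, at chr1:6168905-6170741, which was 1837 bp wide with a score of 149.56 (rank 949). In the lower group the best was chr1:6109437-6110130, with a score of 104.39 (rank 3457). The list 1 rate was 10.2 per 100 kb (4.40 to 20.1), 9.84 times that of chromosome 1 (4.25 to 19.4) and 2.87 times the rate within 1 Mb. The list 2 rate of 1.27 (0.0322 to 7.09) was 1.18 times that of chromosome 1.

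CHD5 also had the only interior peaks of the 10 genes that overlapped between the lists. The list 1 peak at chr1:6105115-6106712 (score 56.4, rank 23094) and the list 2 peak at chr1:6106249-6106765 (score 50.8, rank 29613) shared 464 bp. Both ranked low, behind 72.1% of list 1 and 95.3% of list 2. Over the 10 genes, 1 of 29 interior peaks of list 1 and 1 of 19 of list 2 thus overlapped the other list, beside 3.51% and 3.62% of all peaks. Interior peaks within 10 kb of a peak of the other list numbered 7 of 29 in list 1, beside 24.6% of all list 1 peaks, and 7 of 19 in list 2, beside 22.5%. In the lower flank of CHD5, list 1 had peaks with scores of 101.52 and 87.47 in the end of KCNAB2, a potassium channel subunit gene.

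CHD4 (chr12:6570082-6607379, minus strand, 37.3 kb), the main NuRD ATPase of most cells, held 0 peaks of either list, against 0.396 and 0.473 at the rates of chromosome 12. A lack of peaks was not detectable as a difference there. A single flanking peak of list 1 lay in NOP2, a ribosomal RNA methyltransferase gene, with a score of 57.02. CHD3 (chr17:7884796-7912755, plus strand, 28.0 kb) held 0 list 1 peaks, against 0.730 at the rate of chromosome 17, also not detectable as a difference. Its 1 list 2 peak, at chr17:7884842-7885494, overlapped the end of NAA38, an N-terminal acetyltransferase subunit gene, and scored 52.47 (rank 26402). At 372 bp from the lower annotated end of CHD3, it was the only interior peak of the 10 genes within 1000 bp of a gene end. The list 2 rate in CHD3 was 3.58 per 100 kb (0.0906 to 19.9), 1.90 times that of chromosome 17.

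The paralogous GATAD2 genes are of similar length but held different counts. GATAD2A (chr19:19385843-19508932, plus strand, 123.1 kb) had 7 list 1 peaks and 0 list 2 peaks. All 7 lay in the part of the gene towards the 3′ end, from 72.7 to 98.9% of its length from the 5′ end and within 32.2 kb, and 2 more list 1 peaks followed in the flank. Scores reached 117.84 (rank 2256) at chr19:19495716-19496613 and 106.15 (rank 3251) at chr19:19505732-19507030, and 5 of the 7 were in the better-scoring 50%. The flanking peak over TSSK6, at chr19:19514148-19515569, scored 175.21 (rank 502), which was the best score of any peak in or beside the 10 genes in list 1. The midpoint of the first of the 7 interior peaks lay 89.5 kb into GATAD2A. No peak of either list lay before it in the gene or in the 10 kb flank at the 5′ end.

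Because chromosome 19 is dense in list 1 peaks, the list 1 rate of GATAD2A, 5.69 per 100 kb (2.29 to 11.7), was 1.70 times the chromosome rate (0.685 to 3.51) and 1.21 times the local rate. In list 2, 2.27 peaks would fall in GATAD2A at the chromosome rate and 0 did. The interval of a count of 0 reaches 3.69, so this was not detectable as a difference. GATAD2B (chr1:153804725-153922972, minus strand, 118.2 kb) had 1 list 1 peak and 2 list 2 peaks. The list 1 peak lay at 15.0% of the gene from its 5′ end, with a score of 100.59 (rank 3934). The list 2 peaks lay together at 44.0 and 46.5%, with scores of 52.23 and 58.48. These counts were close to those at the rates of chromosome 1, with ratios of 0.817 (0.0207 to 4.55) in list 1 and 1.57 (0.190 to 5.65) in list 2. In flanks of 10 kb GATAD2B had no peak.

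Both MBD genes are on the minus strand. MBD3 (chr19:1573596-1592865, 19.3 kb) had 3 list 1 peaks and 0 list 2 peaks. They lay at 41.4, 60.7 and 79.5% of the gene from its 5′ end, with scores that were 56.95, 71.88 and 99.24 in this order. The last of them, at chr19:1576157-1578950, was 2794 bp wide and the widest interior peak of the 10 genes, and the 3 together covered 25.4% of MBD3. The list 1 rate of MBD3, 15.6 per 100 kb (3.21 to 45.5), was the highest of the 10 genes, at 4.66 times that of chromosome 19 (0.962 to 13.6). With 211 list 1 peaks within 1 Mb, the local ratio was 1.48. In list 2, 0.355 peaks would fall in MBD3 at the chromosome rate, so that 0 was not detectable as a difference.

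MBD2 (chr18:54151606-54224669, 73.1 kb) had 1 list 1 peak and 2 list 2 peaks, all between 22.3 and 30.6% of the gene from its 5′ end. The list 1 peak had a score of 50.63 (rank 31020), close to the lowest score of the list. The list 2 peaks, at chr18:54207632-54207883 (score 60.35) and chr18:54208128-54208566 (score 64.93), had midpoints 590 bp apart and were 5.06 kb from the list 1 peak. MBD2 lies in a stretch poor in list 1 peaks, with 6 within 1 Mb. The list 1 ratio was 1.74 to the chromosome (0.0441 to 9.71) and 4.56 to the local rate, and the list 2 ratios were 3.06 (0.370 to 11.1) and 3.04.

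**Figure D4:**
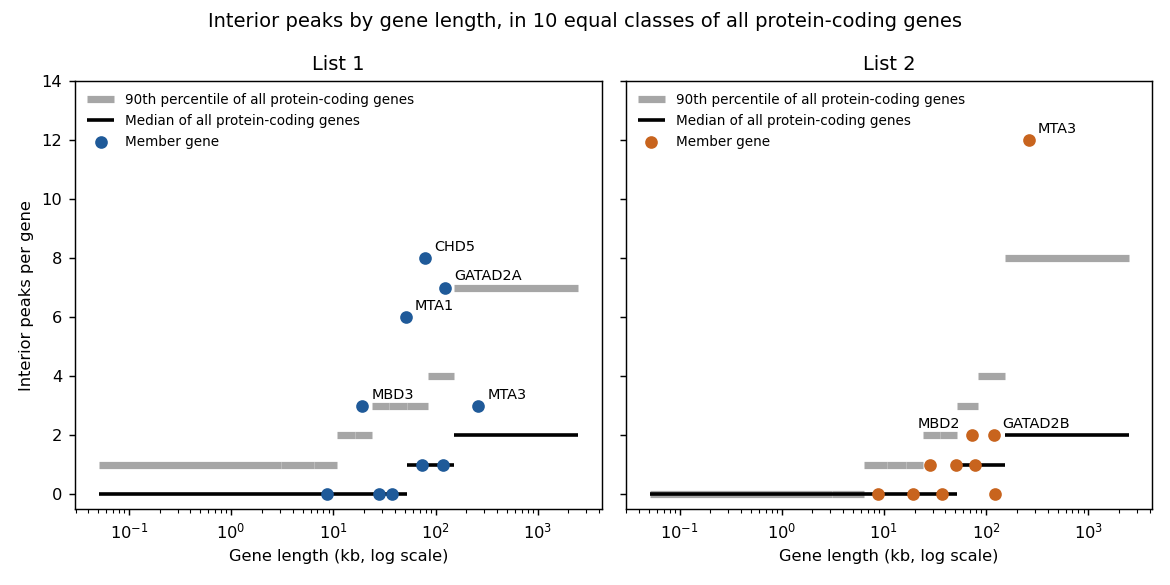
Interior peaks per gene (y axis) against gene length in kb (x axis, log scale) for the 10 genes (dots) in list 1 (left) and list 2 (right), with the median (black) and 90th percentile (grey) of all protein-coding genes in each of 10 equal length classes. MTA1, CHD5, GATAD2A and MBD3 lie above the 90th percentile of their class in list 1, as does MTA3 in list 2. The classes pool all chromosomes.

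Length was a shared feature to read the counts against. In the class of protein-coding genes of 35.3 to 52.3 kb, where MTA1 falls, the 90th percentile was 3 list 1 peaks. It was also 3 in the class of CHD5, 4 in that of GATAD2A and 2 in that of MBD3, so these 4 genes exceeded it with 6, 8, 7 and 3 peaks. The classes pool all chromosomes, and GATAD2A and MBD3 lie on chromosome 19, which is dense in list 1 peaks. Their local ratios were 1.21 and 1.48, and those of MTA1 and CHD5 were 2.71 and 2.87. For MTA3, in the class of the longest genes, the 90th percentile was 8 list 2 peaks. By the fixed rule for likeness, the same pair of counts and the nearest gene length, 42 protein-coding genes shared the 6 and 1 of MTA1, and the nearest in length were SIN3B, ANO7 and AATK. The 8 and 1 of CHD5 recurred in 16 genes, nearest PRDM15, AMZ1 and DOT1L. The 7 and 0 of GATAD2A recurred in 34 genes, nearest PHF21B, OTOF and MBP. The 3 and 12 of MTA3 recurred in 1 gene, XKR9.

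Widths and scores of the interior peaks were close to those of the lists as a whole. The median width was 744 bp in list 1 (269 to 2794 bp), beside 712 bp over the list, and 470 bp in list 2 (252 to 930 bp), beside 447 bp. The median score was 58.37 in list 1 (50.63 to 149.56), beside 64.08, and 58.64 in list 2 (50.8 to 101.87), beside 60.62. Scores exceeded the list median in 14 of 29 peaks of list 1 and 8 of 19 of list 2. The 9 genes with a known strand were divided into 4 equal parts from the 5′ end. List 1 had 2, 5, 6 and 8 peaks in these parts, and GATAD2A gave 6 of the 8 in the last part. CHD5 had no strand here, so its 8 list 1 peaks and 1 list 2 peak are left out. All 8 list 1 peaks of CHD5 lay in the first or last of 4 equal parts, whichever end is the 5′ end. In list 2 the parts had 6, 8, 1 and 3 peaks, and MTA3 gave 3, 6, 1 and 2 of them.

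Flanks within 10 kb held 14 list 1 peaks, beside 8 of the 10 genes, and 4 list 2 peaks, beside 3 genes. A flanking peak was found at 34.5% of protein-coding genes in list 1 and 25.0% in list 2. The list 1 rate was 7 per 100 kb in the flanks and 3.63 inside the genes, and in list 2 the rates were 2 and 2.38. Of the flanking peaks of list 1, most lay in neighbouring genes. Apart from those already named, they lay in OXER1, an eicosanoid receptor gene beside MTA3 (score 51.17), and in UQCR11, a respiratory complex III gene beside MBD3 (score 60.16).

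The other NuRD subunit genes and the relatives of the 10 genes gave a setting for these values. The deacetylase genes HDAC1 and HDAC2, the histone chaperone genes RBBP4 and RBBP7, and CDK2AP1 together held 3 list 1 peaks against 1.23 at chromosome rates (ratio 2.43, 0.502 to 7.11) and 5 list 2 peaks against 1.37 (3.65, 1.19 to 8.53). Of the latter, RBBP4 (chr1:32651208-32686211) held 3 and HDAC1 (chr1:32292083-32333626) held 2, and HDAC2 and RBBP7 held none. RBBP4 and HDAC1 thus lie near each other on chromosome 1. Their list 2 ratios were 7.93 and 4.46 to the chromosome rate, and 3.90 and 2.14 to the rate within 1 Mb. The chromodomain helicases outside NuRD, CHD1, CHD2, CHD6, CHD7, CHD8 and CHD9, held 4 list 1 peaks against 13.4 (ratio 0.299, 0.0814 to 0.765) and 16 list 2 peaks against 10.9 (1.47, 0.842 to 2.39), 7 of them in CHD6. Other genes with ELM2 and SANT domains (RERE, MIER1, MIER2, MIER3, RCOR1, RCOR2 and RCOR3) held 9 list 1 peaks against 9.02 (ratio 0.998, 0.456 to 1.89), 5 of them in MIER2, and 12 list 2 peaks against 8.77 (1.37, 0.707 to 2.39). The ratios of the groups are to chromosome rates alone, and the rate within 1 Mb can differ either way. RERE held 1 list 1 peak, against 4.82 at the chromosome rate and 15.8 at the local one. CHD9 also held 1, against 5.45 and 2.04. The median lengths of these groups ranged from 35.0 to 158.5 kb. The 10 genes were chosen with their peaks known, and the differences between groups were not tested.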

How the data were processed

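Paired-end reads of 2 MTA1 ChIP and 2 input libraries from HCT116 cells lie behind the data, per the labels' protocols. The submitters' processing notes name cutadapt, Bowtie2 and GRCh38, without versions. The authors deposited 1 list of peaks per replicate, with a score per peak in column 5. Peak names have the form that MACS writes, and no source used here gives its settings. The lowest score was 50 in each list.

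Gene ends came from a RefSeq table (GRCh38.p14) and strand and promoter sequence from a second one. All counts were made with Python 3.11.15, numpy 2.4.6, pandas 2.3.3 and scipy 1.17.1 for every protein-coding gene, with peak positions 1-based. Overlap meant at least 1 bp. The named genes were the 10 members, the families listed, the 3 nearest in length with the same pair of counts, and genes overlapped by a described peak. The members and lists were chosen with earlier results of these data known, so no test was run. The counting was checked on simulated data, where 200 of 200 planted genes were right. A further family that was planned is not reported here. Alternatives are given in the closing section.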

Additional observations from a re-analysis of the deposited data

How the results depend on the processing

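Counting any overlap in place of the midpoint, or taking the chromosome span from first to last peak, moved none of the summed values for the 10 genes by more than 1.5 times. Keeping the better-scoring 50% of each list left 14 interior peaks in list 1 and 8 in list 2, with list 2 peaks in 2 genes (MTA3 and MBD2), and left 0 interior peaks overlapping between lists. Fewer peaks enter by construction. The 2 interior peaks that overlapped, the pair in CHD5, became 0 where 50% of each peak had to be shared and 4 when a gap of 1 kb was allowed, which adds the pair in MTA3. The list 1 ratio of observed to expected peaks was 1.33 with the rate within 1 Mb, and the cause was not tested. With the rate over the interiors of other protein-coding genes, the ratios went from 2.51 to 1.82 in list 1 and from 1.99 to 1.71 in list 2. Flanks of 5 and 20 kb in place of 10 kb held 5 and 25 list 1 peaks in place of 14, and 2 and 5 list 2 peaks in place of 4. The list 2 ratio without MTA3, chosen after seeing the data, was 1.01. Leaving out MTA1, CHD5 or GATAD2A, also chosen after seeing the data, gave list 1 ratios of 2.07, 1.95 and 2.95. Without replicate 1 or replicate 2, the 48 interior peaks became 19 and 29, the counts of a single list. No paired analysis was possible because each deposited list already sets 1 ChIP library against 1 input so that no separate library values entered. Depth is unknown, so weak sites cannot be told from absent ones, and short genes such as MTA2 could hold too few peaks for any difference to be detectable.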
